A study of Arabidopsis thaliana with 18 samples.

Results

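The peaks described here were the 315 regions bound by FLC in plants with functional SVP, out of 1503 peaks in the 4 deposited lists of the study. FLC was precipitated with an antiserum against the protein from *SVP FLC FRI* plants (WT), and peaks were called against the *svp-41 flc-3 FRI* double mutant treated with the same antiserum, so this control lacked SVP as well as FLC. The supplement of the study speaks of 4 negative control samples combined into a single control, where the labels give 3 for FLC, and which samples made up the control behind each fold-enrichment is not settled by the sources used here. All plants were *A. thaliana* of the Columbia background with an active *FRIGIDA* (*FRI*) allele, seedlings 2 weeks old, with 3 samples of each of these genotypes among the 18 samples and 6 conditions of the study. The labels give long days and the methods of the study short days, and tissue above ground was collected. All peaks of the list were used, and the authors had already merged the replicates, so no value below has a replicate error and differences between peaks could not be set against the spread between samples. Intervals below are 95% intervals that cover counting error only.

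FLC is a MADS-box transcription factor that delays flowering and whose gene is silenced by winter cold. MADS-box proteins bind DNA as dimers at the CArG-box, a 10-bp element with CC at one end, GG at the other and A or T between them. FLC and the related protein SVP bind each other, and a classic target is *SOC1*, which promotes flowering. FRI keeps *FLC* transcription high in the plants used here.

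A peak is described by its width, its fold-enrichment over the control and the −log10 of its p-value, all as the authors' peak calling gave them. The sources used here do not say whether these values come from 1 replicate or from a pooled call. Fold-enrichment ran from 1.32 to 16.4 with a median of 3.28, −log10 p from 4.33 to 146.0 with a median of 10.4, while the median width was 233 bp in a range of 106 to 815 bp. Peaks were ranked by −log10 p, rank 1 being the highest. The 50 highest reached down to a −log10 p of 27.7 at rank 50 (*DIN10*), and the next peak, at rank 51, had 26.97. A peak whose 200 bp around the summit recurred elsewhere in the genome, at 95% identity or more over at least 150 bp, is called copied below. The list had 102 copied peaks and 213 single-copy peaks. Reads from copied sequence may be placed with less certainty where the copies are nearly identical, which was not examined.

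Sequence near the summits is shown for some genes that lead the list or have known roles, at matches to the CArG-box. Binding at these bases was not tested. Only peaks with a match are shown. The highest peak (*AT2G20440* and *AT2G20450*) had none within 100 bp of the summit, even with 1 mismatch allowed. The same held for the peaks of *RLP33*, *JAZ6*, *NIT1*, *SRF3* and *VTC5*. The windows below are 30 bases of TAIR10.1 (RefSeq), forward strand, with the 10-bp box nearest the summit in capitals. The first set are complete CArG-boxes at 6 of the 50 highest peaks and at 4 peaks of genes with known roles in flowering or fruit development.
GDPD2 and DRB5, chr5:16440866-16440895: agcacaatttCCAAAAATGGatcacaattt
AT1G44010, chr1:16713655-16713684: taaagacaaaCCAAAAATGGaaagaaacaa
AT3G15460 and AT3G15470, chr3:5216399-5216428: aaagaattttCCTTTTTTGGtttctctctt
bZIP44, chr1:28293013-28293042: ttttctgtttCCTTATTTGGgagttattgt
ATC, chr2:11771695-11771724: attaacatttCCAAAAATGGtaagtccaag
AT1G12070 and AT1G12080, chr1:4082551-4082580: cttaagatttCCTTAAATGGcgttattgac
SPA2, chr4:6771967-6771996: ctcttgtttgCCAAATTTGGgatatttctg
MIR156E, chr5:3865686-3865715: gtgtgttttgCCTAAAAAGGaaagttgtca
SHP2, chr2:17819837-17819866: aaagggattaCCAAAAAAGGaaagtttcca
AP2, chr4:17397975-17398004: tcaacgaaagCCATTATTGGaatgtttgtt

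The second set shows peaks of other named genes without a complete box in the window. The capitals mark the 10 bases nearest the summit that differ from a CArG-box at 1 base.
AGL16, chr3:21177437-21177466: tatgttctttCCTTATGTGGctctctcttc
SEP3, chr1:8598862-8598891: acctcgttacCCAAAATAGAaagatggagt
CBF1, chr4:13023573-13023602: gaagaaaacaACAAAATTGGctttagtgga
SOC1, chr2:18811152-18811181: ttaagaaagaCCAAAAATAGcatattttga
LEJ2, chr4:17395801-17395830: tcaaagatttACAAAAATGGaaagtctttg
NAC3, chr3:5236823-5236852: tcatttctttCCTAAAATAGtaacaattca
RGL2, chr3:822768-822797: gcatgcttttCCATTTTTAGtcatttgatg
AOC4, chr1:4548756-4548785: tggatactttCTATATTTGGaaagtttggc
SVP, chr2:9580201-9580230: ttaaagtctcCCTTTTTAGCaaaaattctc
TEM1, chr1:8983642-8983671: aaagaagtttCCAAAAATCGaatggtccat

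By an exact match of letters near the summit, complete CArG-boxes were uncommon among FLC peaks and incomplete ones were frequent. The study searched the peak sequences with weighted motifs instead, a different measure, and reports the CArG-box as the most enriched motif. Within 100 bp of the summit, 28 of 315 peaks (8.89%) held a complete box, against 1.24% of all 201-bp windows of the genome, and the 50 highest held one in 6 peaks (12%, interval 5.62 to 23.8%). With 1 mismatch allowed, a choice made after seeing the data, 51.4% of all peaks and 60% of the 50 highest held a box, against 22.5% of genome windows. Single-copy and copied peaks differed. In single-copy peaks the share with a box of at most 1 mismatch was 63.4% (interval 56.7 to 69.6%), and in copied peaks it was 26.5% (interval 18.9 to 35.8%), an interval that includes the share of genome windows. Copied peaks held a complete box in 4 of 102 (3.92%, interval 1.54 to 9.65%), above the genome share. Those at ranks 55 and 246 are copies of each other, and both intervals of copied peaks count copies of a sequence as independent. Base composition differed as well, with a median of 56.0% A or T in the windows of copied peaks, 66.2% in those of single-copy peaks and 63.7% in the genome, and its part in these shares was not tested.

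Boxes were more frequent near the summit than away from it, with a wide spread. Among the 28 peaks with a complete box, the median distance from box to summit was 15.5 bp, and 17 had it within 25 bp. With at most 1 mismatch, the nearest box of the 135 single-copy peaks that had one was at a median of 21.5 bp, and in the 29 of these among the 50 highest it was at 12.5 bp. Of the 135, 73 (54.1%) had it within 25 bp. At *bZIP44*, which encodes a basic leucine zipper factor, the complete box was centred 1.5 bp from the summit, at *SPA2*, whose product works with the light-signalling ubiquitin ligase COP1, 3.5 bp, and at *AP2*, a regulator of flower development, 4.5 bp. The incomplete box at *LEJ2* was 0.5 bp from the summit and that at *SOC1* 12.5 bp. Other boxes shown were farther off, at 37.5 bp for *SHP2*, 52.5 bp to the left for *AT1G12080*, 59.5 bp for *SVP* and 66.5 bp to the left for *TEM1*. The mismatch fell in the CC or GG pairs in 82.4% of the 1-mismatch boxes at single-copy peaks, and in 80.9% of those in the whole genome.

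**Figure D1:**
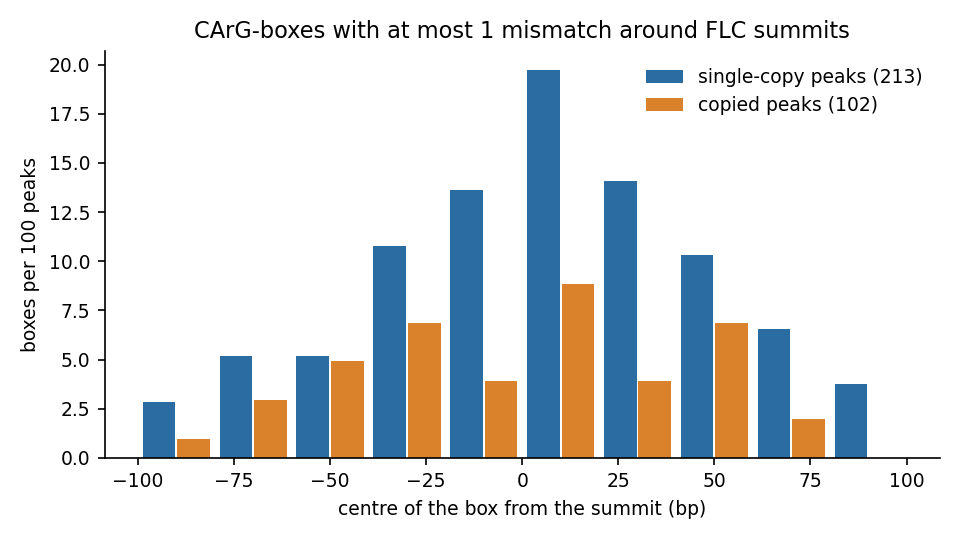
Number of CArG-boxes with at most 1 mismatch per 100 peaks (y axis) in steps of 20 bp of distance from the summit (x axis, bp), for the 213 single-copy peaks (blue) and the 102 copied peaks (orange). Single-copy peaks held 19.7 boxes per 100 peaks in the 20 bp just right of the summit and 2.82 in the outermost step on the left, while the copied peaks stayed at or below 8.82.

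A single word recurred among the complete boxes. CCAAAAATGG, read on either strand, made up 9 of the 30 boxes (30%) and 4 of the boxes at the 50 highest peaks, those shown for *GDPD2*, *AT1G44010* and *ATC* among them, while it was 9.02% of all complete boxes of the genome. It was picked as the most frequent word of these boxes, and the 9 are not independent, since 2 lie in the peak at rank 2 and those at ranks 55 and 246 are copies of each other. The bases next to the box also differed from the genome. TTT directly before the box or AAA directly after it, as in the windows of *ATC* and *MIR156E*, stood beside 22 of the 30 boxes (73.3%), compared with 11.2% of 7741 boxes in the genome. This flank was chosen after the sequences were seen. The G-box CACGTG, the palindrome bound by many basic helix-loop-helix and leucine zipper factors, was searched in the same windows. It was in 28 peaks (8.89%), all single-copy, against 2.21% of genome windows, and in 7 of the 50 highest (14%), among them the peaks of *JAZ6*, *NIT1*, *VTC5* and *NAC3*. Its 13.1% of single-copy peaks was near the 11.3% with a complete CArG-box. A match to these letters is a description and was not tested for binding.

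FLC peaks were distributed unevenly over the chromosomes when all were counted, and evenly when those at genes were counted. Chr2 held 85 peaks, or 4.32 per Mb (interval 3.45 to 5.34), Chr5 held 76 (2.82 per Mb), Chr4 44 (2.37), Chr3 48 (2.05) and Chr1 62 (2.04), and the whole genome 2.64 per Mb. The intervals of Chr2 and of Chr1, Chr3 and Chr4 did not overlap, and Chr5 (2.22 to 3.53) overlapped them all. These intervals count each peak as independent, while 55 of the 85 peaks on Chr2 were copied, so that of Chr2 is too narrow. Of peaks with an assigned gene there were 1.93 per Mb on Chr2 and between 1.61 and 1.82 on the others, with wholly overlapping intervals. Per 1000 protein-coding genes these were 8.80 peaks on Chr2 and between 7.18 and 7.74 elsewhere. Without copied peaks Chr2 had the lowest density, 1.52 per Mb.

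**Figure D2:**
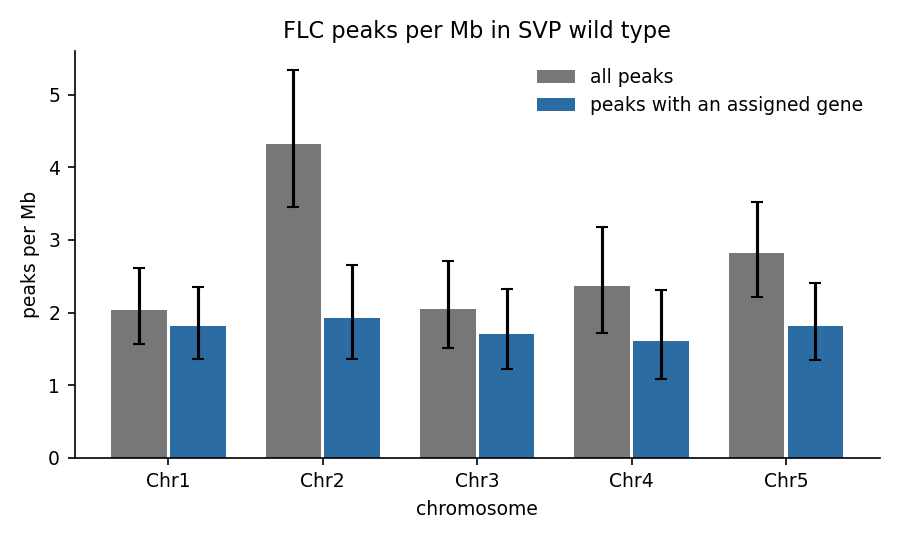
Peaks per Mb (y axis) on each of the 5 chromosomes (x axis) for all 315 peaks (grey) and the 212 with an assigned gene (blue), with exact 95% Poisson intervals as error bars. Chr2 stands at 4.32 for all peaks and at 1.93 for peaks with a gene, where the 5 chromosomes lie between 1.61 and 1.93.

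Part of the excess on Chr2 lay in a short stretch. Its first 100 kb held 29 peaks, 28 without a gene, in groups from 15292 to 48421 (19 peaks) and from 58903 to 67010 (9 peaks), all of them copied. This end of Chr2 adjoins the nucleolus organizer, the array of ribosomal RNA genes. Without it Chr2 still had 2.86 peaks per Mb, a value chosen after seeing the data. Another 12 peaks, all copied, lay between 3606531 and 3634983 of Chr2. In all, 3 of the 121 bins of 1 Mb stood apart, with 32 and 15 peaks on Chr2 and 17 on Chr5, compared with a median of 2, and 21 bins were empty. Across the bins, the number of peaks with a gene had a Spearman rho of 0.52 with the number of protein-coding genes (n = 121), and that of peaks without a gene a rho of -0.39. The bins share the libraries and differ in base composition and mappability.

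Peaks without an assigned gene were 103 of 315 (32.7%, interval 27.8 to 38.1%), 47 on Chr2 and 56 elsewhere. The authors assigned a gene where the peak fell from 3 kb upstream to 1 kb downstream of it. The peaks without a gene were mostly at copied sequence, 87 of 103 (84.5%), compared with 15 of 212 peaks with a gene (7.08%). They were also narrower, at a median of 161 bp against 271 bp, and weaker, at a median fold-enrichment of 2.64 against 3.44. In the TAIR10.1 annotation 61 of the 103 had only pseudogenes in the same window, 34 had nothing, and 3 had a protein-coding gene, while 45 were more than 10 kb from any protein-coding gene. Whether the copies account for these peaks was not tested.

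Among the 50 highest peaks 9 had no gene. A group of 5 neighbours led them. The peaks at ranks 15, 16, 18, 37 and 45, with fold-enrichments of 9.83, 9.39, 8.23, 5.34 and 5.05, all lay within 3 kb or less of the pseudogene *AT2G01029* near the tip of Chr2, and had between 12 and 24 further copies each. The peak at rank 18 was 794 bp wide, and that at rank 15 was 180 bp wide. Ranks 40, 41 and 43 were also copied and on Chr2, with widths of 187, 164 and 156 bp. Rank 46, on Chr5 (26807791 to 26808312, 521 bp wide, 5.74-fold), was the exception, at single-copy sequence 933 bp from the protein-coding gene *AT5G67190*, which the TAIR10.1 annotation placed in the window.

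Of the peaks without a gene, 16 were single-copy. Their median width was 227.5 bp and their median fold-enrichment 3.25, and 62.5% (interval 38.6 to 81.5%) held a box of at most 1 mismatch, while 1 of the 16 (6.25%) held a complete box and their median −log10 p was 9.26. The median of the copied peaks without a gene was 156 bp and 2.50-fold, 26.4% held such a box, 4.60% a complete one, and their median −log10 p was 9.29. In peaks with a gene 10.8% held a complete box and the median −log10 p was 10.96. The peaks at ranks 52 and 53 belong to these 16, with 5.29-fold and 5.06-fold enrichment, at 2263 and 3447 bp from the nearest protein-coding gene. The wide peak at rank 98 (706 bp) was 4758 bp from one.

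Copied peaks also formed families with each other. Of the 102, 58 fell into 18 families in which the sequence of one peak was a copy of another. The largest family had 11 peaks, on Chr2, Chr4 and Chr5, with fold-enrichments between 1.32 and 1.74 and ranks from 116 to 312. Of the 39 peaks below 2-fold enrichment in the whole list, 36 were copied.

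Higher peaks were wider. With the ranking cut into 5 equal parts, median width fell from 451 bp for the highest 63 peaks through 299, 228 and 188 bp to 163 bp for the lowest. Spearman's rho of width with −log10 p was 0.58 over the 315 peaks and 0.63 with fold-enrichment, and fold-enrichment followed −log10 p closely (rho = 0.92). All peaks share the same libraries and peak calling, in which the width and the p-value both come from the pile of reads, so these are descriptions. The relation was tighter in single-copy peaks (rho = 0.76, n = 213) than in copied ones (rho = 0.26, n = 102), and in peaks with a gene (rho = 0.74) than in those without (rho = 0.31).

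**Figure D3:**
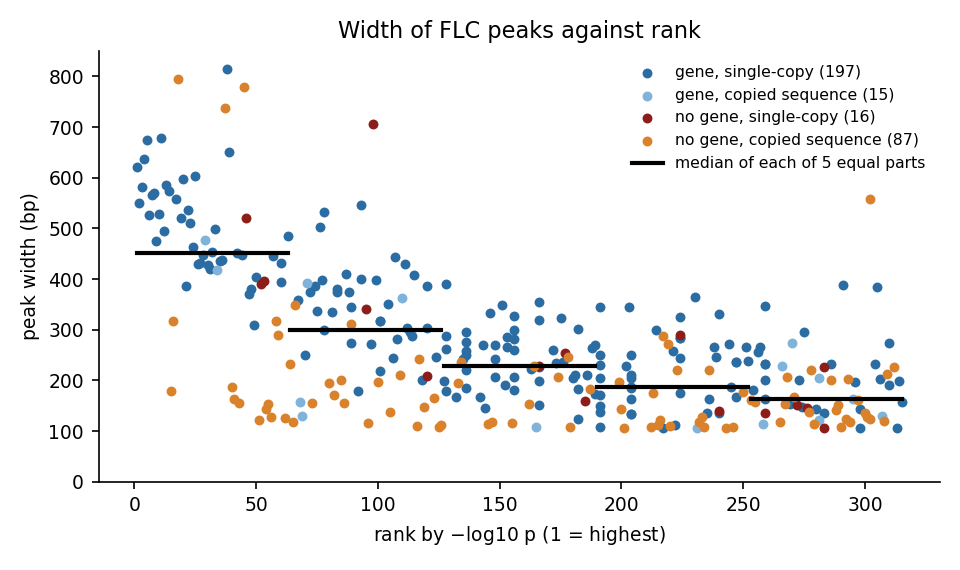
Peak width in bp (y axis) against rank by −log10 p (x axis), 1 point per peak, coloured by whether the peak had an assigned gene and whether its sequence was copied, with the median of each of 5 equal parts of the ranking as a black bar. The medians step down from 451 to 163 bp, and the copied peaks without a gene (orange) lie low at all ranks apart from a few, such as the 794-bp peak at rank 18.

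The widest peak of all was at rank 38, with 815 bp, near *AT4G08760*. The 4 highest peaks were 621, 551, 581 and 636 bp wide. The 50 highest peaks had a median of 496 bp and the others of 210 bp. Within the 50 highest the relation persisted at a lower value (rho = 0.46), and below them as well (rho = 0.39).

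The 212 peaks with a gene were assigned to 340 genes, 316 of them protein-coding, which is 1.15% of the 27444 protein-coding genes annotated. There were 6 microRNA genes, 5 long non-coding RNA genes and 5 tRNA genes among the others, and 5 identifiers were not in the TAIR10.1 annotation. A single gene was assigned to 100 peaks, 2 genes to 86, 3 to 23 and 4 to 3. A peak between divergent neighbours thus names genes that the data do not tell apart.

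Relative to the nearest assigned gene, 96 of 212 summits (45.3%) were upstream, at a median position of -699.5 bp from the start and 60 of them within 1 kb of it, and 39 (18.4%) were in the 5′ untranslated region. A further 40 were downstream of the gene, 15 in introns, 13 in the 3′ untranslated region and 7 in coding exons. In the 50 highest peaks the 5′ untranslated region took 13 of 41 (31.7%, interval 19.6 to 46.98%), and in the lower-ranked peaks 26 of 171 (15.2%, interval 10.6 to 21.3%), with overlapping intervals. The window of assignment reaches farther upstream than downstream, which by itself favours upstream positions. Introns held none of the 41 and 15 of the 171.

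**Figure D4:**
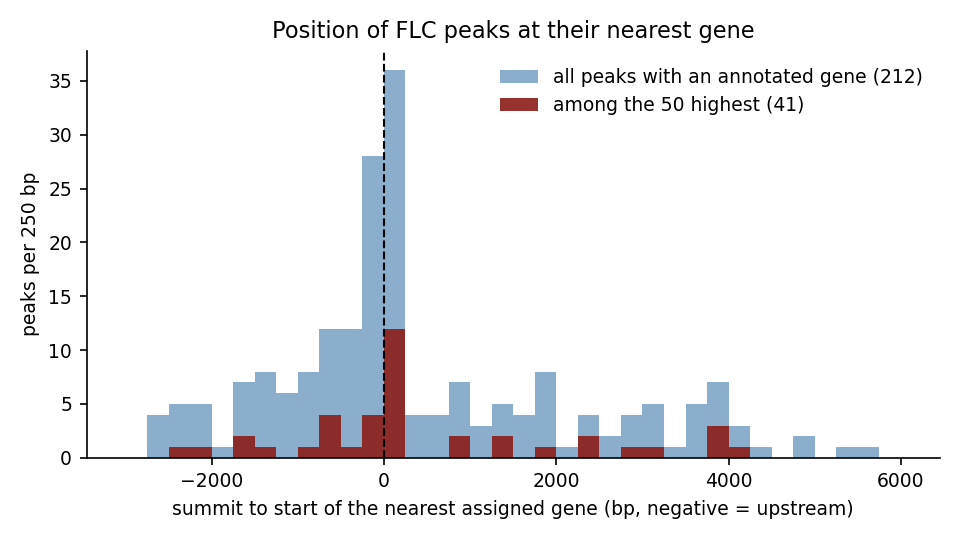
Number of peaks per 250 bp (y axis) by the distance from the summit to the start of the nearest assigned gene (x axis, bp, negative values upstream), for the 212 peaks with a gene (blue) and the 41 of these among the 50 highest (red). Of the 212 summits, 100 lie between 1 kb before and 500 bp after the start, and 8 fall outside the axis.

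In all, 9 genes had several peaks, and the other 331 had 1 each. *CBF1*, which encodes a transcription factor of the cold response, had a 7.87-fold peak 554 bp upstream of its start (rank 11) and a 4.45-fold peak 375 bp beyond its end (rank 93). The lower of these was also assigned to the neighbouring paralogue *CBF3*, 2005 bp upstream of it. *NAC3*, a NAC-family factor of stress and hormone responses, had the reverse arrangement, with the 7.79-fold peak 639 bp downstream (rank 26) and a 3.04-fold peak 361 bp upstream (rank 214). *AT3G03460* shared its 8.07-fold peak with *RGL2* and had a second at 3.07-fold, 2009 bp away. That second summit lay in the 5′ untranslated region of *CYP89A9*. *AT3G46760* and its neighbour *AT3G46770* shared peaks of 4.38-fold and 2.82-fold, the lower with its summit in the 3′ untranslated region of *AT3G46750*. The peaks of *CBF1*, *NAC3*, *AT3G03460*, *AT3G46760* and *AT3G46770* were single-copy.

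The remaining genes with several peaks were mostly at copied sequence. *AT2G08986* had 4 peaks between 1.32-fold and 1.39-fold, all copied, and *AT2G07981* had 3, between 1.39-fold and 2.36-fold. They stand next to each other on Chr2 and share a peak. *AT4G08760* on Chr4 had 3 peaks, of which the 4.55-fold one was single-copy, and *AT1G54920* on Chr1 had 2, at 4.90-fold and 3.20-fold, 563 bp apart.

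The 41 of the 50 highest peaks with a gene named 72 genes with diverse known roles, grouped here after the genes were seen. The largest named groups were ribosome, RNA processing and tRNA, and metabolism and transport, with 10 genes each. There were 5 genes of flowering and flower or fruit development, 4 of hormone synthesis or signalling, 4 other transcription factors, 4 receptor-like proteins and kinases and 3 of ascorbate and redox. The other 32 had other or unknown roles. The share of these roles among all assigned or annotated genes was not counted, so group sizes do not show a preference. Some genes were only neighbours of a peak within another gene. The tRNA genes *AT5G06125* and *AT1G71700*, for example, were 2483 and 2227 bp from the summit.

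Flowering and development genes reached from rank 7 to rank 36. *AGL16*, a MADS-box gene that delays flowering, had an 11.5-fold peak in its 5′ untranslated region, 162 bp from the gene start. *SEP3*, which specifies floral organs, had an 8.77-fold peak 2738 bp upstream, nearer to *AT1G24265* on the other side (1530 bp). *SOC1* had a 9.63-fold peak 29 bp upstream of its start. *ALC*, a basic helix-loop-helix gene of fruit opening, had a 7.25-fold peak 116 bp upstream, and *ATC*, a relative of *TFL1* that delays flowering, a 5.71-fold peak 1490 bp upstream. These 5 peaks were single-copy and between 419 and 565 bp wide.

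Hormone genes were represented by different pathways. *JAZ6*, a repressor of jasmonate responses, had a 10.8-fold peak 576 bp upstream (rank 9), and *AOC4*, which encodes an allene oxide cyclase of jasmonate synthesis, a 4.98-fold peak in its 3′ untranslated region (rank 47). *RGL2*, which encodes a DELLA repressor of gibberellin responses, had an 8.07-fold peak 1138 bp upstream (rank 27), nearer to *AT3G03460* (106 bp). *NIT1*, a nitrilase that can form auxin, had a 9.09-fold peak in the 5′ untranslated region (rank 12). Among the transcription factors *CBF1* and *NAC3* were followed by *BZIP49*, a membrane-anchored leucine zipper factor (8.36-fold, rank 24), and *bZIP44* (7.34-fold, rank 28).

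Genes of ascorbate metabolism appeared at rank 5 and rank 14. *MDAR6*, a monodehydroascorbate reductase, was assigned to a 12.01-fold peak 751 bp downstream of it, which was nearer to *AT1G63950* (123 bp). *VTC5*, a GDP-L-galactose phosphorylase of ascorbate synthesis, had a 10.02-fold peak in its 5′ untranslated region. *LEJ2*, a chloroplast protein that acts on thioredoxins, had a 5.68-fold peak 2337 bp upstream (rank 25).

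The highest peak of the list, 16.4-fold, lay 154 bp upstream of *AT2G20450*, a ribosomal protein L14 gene, and within the 5′ untranslated region of the divergent *AT2G20440*, a Rab GTPase-activating protein gene. The second, 15.4-fold, lay between *DRB5*, for a double-stranded RNA-binding protein, and *GDPD2*, for a glycerophosphodiester phosphodiesterase, 783 bp before the latter. Its nearest assigned gene was *AT5G41071*, which lies between them, 621 bp from the summit. The third, 14.04-fold, was between *RLP33*, a receptor-like protein gene (857 bp upstream), and *AT3G05670*. *RPS15* and *AT5G55125* are further ribosomal protein genes, the second 2864 bp from a summit in the 5′ untranslated region of *VTC5*. *RS40* and *RS2Z32* are splicing factor genes, the last with a 7.52-fold peak 73 bp upstream, in the 3′ untranslated region of *ABCG20*. *RS40* shares its peak with *CBF1* (948 bp upstream of *RS40*). *SRF3*, a receptor kinase gene, had a 9.01-fold peak in its 5′ untranslated region, *PIP2E*, an aquaporin gene, a 6.28-fold one, and *CK1*, a choline kinase gene, a 5.77-fold one.

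**Figure D5:**
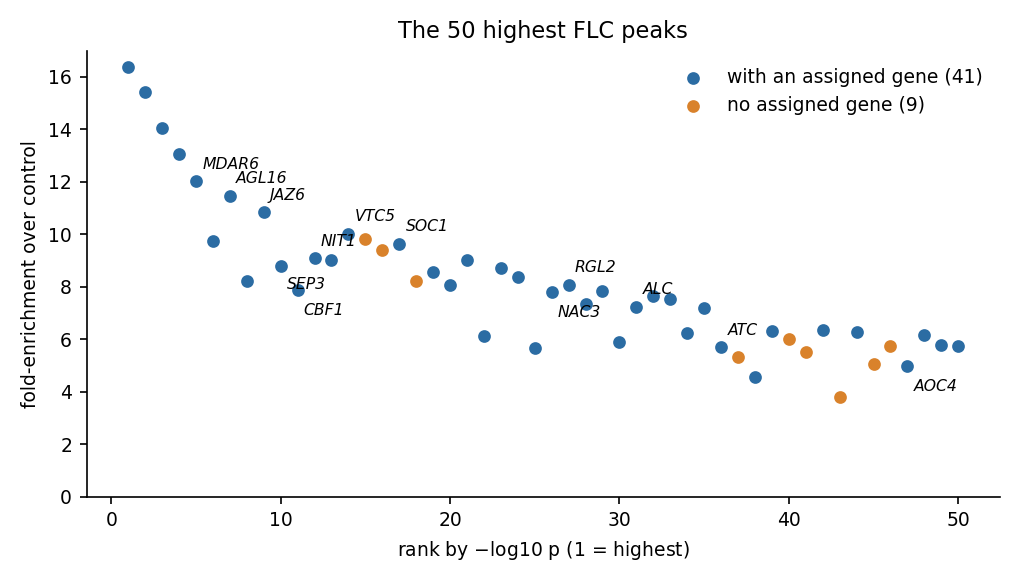
Fold-enrichment over the control (y axis) of the 50 highest peaks in order of −log10 p (x axis), with a gene (blue, 41) or without (orange, 9), and the names of some assigned genes. Fold-enrichment falls from 16.4 at rank 1 to 5.73 at rank 50, and the lowest value, 3.799 at rank 43, is a copied peak without a gene.

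Genes of 6 pathways known in flowering, temperature and hormone responses were read against the list. These 151 genes were chosen with results of these data known, so the counts carry no independent weight. Of them 28 (18.5%) were assigned to a peak. Of the 147 that are protein-coding, 24 (16.3%) were assigned, beside 1.15% of all protein-coding genes. Of the 50 highest peaks 8 (16%) held a gene of the lists, beside 28 of all 315 peaks. These 28 peaks were all single-copy, with a median of 4.33-fold and 336 bp. Of them 23 held a box of at most 1 mismatch, beside 63.4% of all single-copy peaks, and 5 held a complete box, beside 11.3%.

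MADS-box genes were assigned in 6 of 33 cases. *SVP* itself had a 5.11-fold peak in its 5′ untranslated region, 509 bp after the gene start (rank 63). *SHP2*, a fruit gene, and *AP3*, a petal and stamen gene, followed at 2.32-fold (rank 203) and 2.92-fold (rank 221), after *AGL16*, *SEP3* and *SOC1*. *FLC*, its close relatives *FLM* and *MAF2* to *MAF5*, *AGL24*, *FUL* and *AP1* had no assigned peak.

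Genes of the flowering-time list were assigned in 13 of 36 cases, all but *ATC* below the 50 highest. *AGL16* (rank 7) and *SOC1* (rank 17), which also act on flowering time, were counted with the MADS-box genes above. The microRNA genes of the list were all assigned, and without them the count was 9 of 32. *SPA2* had a 4.30-fold peak in an intron (rank 75). *SPL15*, which promotes flowering, had a 4.67-fold peak in its 5′ untranslated region (rank 83), and the microRNA genes *MIR156B*, *MIR156E* and *MIR156F*, whose product represses *SPL* genes, had peaks of 3.92-fold, 3.18-fold and 2.82-fold between 1484 and 2677 bp upstream. *MIR156d* of the same family, which the list of pathway genes did not include and which is named after its value was seen, had a 4.13-fold peak 1159 bp upstream (rank 107). *MIR159A* had one of 2.65-fold, with its summit in the 5′ untranslated region of *CDKD1;1*. The *MIR156B* summit lay in an intron of *AT4G30970*, and those of *MIR156F* and *MIR156d* were nearer to *AT5G26146* and *AT5G10946*. *COL1*, a relative of *CO*, had a 3.71-fold peak 83 bp upstream, and *PHYB*, the red-light receptor, a 3.07-fold peak 692 bp upstream. The *COL1* summit lay in an exon of the long non-coding RNA gene *AT5G15845*. The peaks at *TEM1*, a repressor of *FT* (2.97-fold, 409 bp upstream), *TOE3* (2.79-fold) and *AP2* (2.09-fold) were at ranks 224, 235 and 313. *FRI* had a 3.18-fold peak 710 bp downstream, nearer to *AT4G00651* (334 bp). The active *FRI* allele of these plants was introgressed, and how its sequence differs from the reference at this peak was not examined. *FT*, *TSF*, *CO*, *LFY* and *SPL9* had none in this list. The study names *FT* among the genes that FLC and SVP each bind in the absence of the other.

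The hormone, cold and clock genes were fewer. Gibberellin genes were assigned in 2 of 28 cases, *RGL2* and *DDF1* (3.50-fold), which lowers gibberellin when overexpressed. *GA20OX2* and *GA2OX8* were not assigned in this list, although the study counts *GA2OX8* among its complex-exclusive targets. Jasmonate genes were assigned in 3 of 27 cases, *JAZ6*, *AOC4* and *LOX6* (4.77-fold, in an intron), the last a lipoxygenase gene. Cold genes were assigned in 3 of 14 cases, *CBF1*, *CBF3* and *RD29A*, a cold- and drought-induced gene with a 4.45-fold peak 119 bp upstream, and the neighbouring *CBF2* was not. The circadian clock had 1 of 13, *RVE2*, a MYB factor of the clock output, with a 4.36-fold peak 2628 bp upstream.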

How the data were processed

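The authors precipitated chromatin with an FLC antiserum, sequenced it (CASAVA 1.8 in the submitters' processing notes), aligned the reads to TAIR10 with Bowtie2 2.0.2 and called peaks with MACS, keeping those that passed their reproducibility threshold and a second caller. The list they deposited merges the replicates and gives for each peak its start, end, summit, assigned genes, a fold-enrichment (a ratio to the control) and a −log10 p-value. Bowtie2 reports 1 best position for a read that aligns to several. No reads or coverage were used, so the depth is unknown. 0 columns of values were left unused.

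The list was read with Python 3.11.15, pandas 2.3.3, NumPy 2.4.6 and SciPy 1.17.1, and plotted with matplotlib 3.10.9. Sequence and annotation were TAIR10.1, with 347 of 348 annotated peak and gene pairs inside the authors' window. Copies were searched with BLAST+ 2.17.0. Wilson intervals were given for shares and exact Poisson intervals for densities, with no test, since the list is a single merged set. The motif and gene-window steps were tested on simulated data. Named were the genes of the 50 highest peaks, genes with several peaks and listed genes with a peak. Members and lists were chosen with earlier results of these data known. Alternatives were a minimum −log10 p of 10, other gene assignments, motif windows and rankings, and leaving out copied peaks.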

Additional observations from a re-analysis of the deposited data

How the results depend on the processing

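Of 43 alternative values 20 stayed within the interval of the value reported, or within 1.5 times for a count and 23 moved. The rank correlations were positive in every alternative run. With a −log10 p of at least 10, peaks per Mb were 1.15, 2.13, 1.24, 1.35 and 1.22 on Chr1 to Chr5, and 3 genes had several peaks. Without copied peaks, Chr2, Chr4 and Chr5 had 1.52, 1.67 and 2.04 peaks per Mb, rho of width with −log10 p was 0.76, 7.51% of peaks had no gene and 5 genes had several peaks. With an assigned gene, Chr2, Chr4 and Chr5 had 1.93, 1.61 and 1.82 per Mb, and rho was 0.74. Reassigning genes of all kinds from TAIR10.1 left 10.8% of peaks without a gene and gave 34 genes with several peaks. Without the first 100 kb of Chr2, added after seeing the data, Chr2 had 2.86 peaks per Mb, and 26.2% of peaks had no gene. A CArG-box with 5 to 7 A or T was in 15.2% of all peaks, and one with at most 1 mismatch, also added later, in 60% of the 50 highest and 51.4% of all. These subsets hold fewer peaks, or a looser motif or annotation, by construction. No paired analysis was possible because the list merges the replicates, and for the same reason no replicate could be left out.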
